A study of Mus musculus with 32 samples.

Results

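The genes described here are the transcription factor Atf4 and 9 genes tied to it: the related factors Atf5 and Ddit3, the amino acid enzymes Asns, Psat1 and Phgdh, the glutathione-degrading enzyme Chac1, and the amino acid transporter subunits Slc7a5, Slc7a3 and Slc3a2. Every array probe that carries 1 of these 10 symbols in the platform's probe table was taken and kept apart from the others, which gave 14 of the 25697 probes. Of these, 13 were detected in all 32 arrays and were tested, and the remaining probe of Slc7a3 (ILMN_1212906) was detected in 0 arrays. The genes were chosen with results of these arrays known: they were selected on the signal differences of R2 against D2 and R8 against B6 and on the co-expression of several of them in R2 and D2. Those comparisons are therefore given as descriptions. Tests are given for the difference between the D2 and B6 backgrounds, which is computed from the mean of the strains within each background, and for the relation of the other probes to Atf4 among the B6 and R8 arrays.

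ATF4 is the main transcription factor of the integrated stress response. When a kinase phosphorylates the translation factor eIF2, protein synthesis falls in general while translation of Atf4 mRNA rises, and ATF4 then switches on genes that import, make and charge amino acids. Because ATF4 is controlled largely at translation, its mRNA is an incomplete guide to its activity, and an array measures only the mRNA. In brain, SLC7A5 and SLC3A2 form the large neutral amino acid transporter of the blood-brain barrier, and astrocytes are the main site of serine synthesis by PHGDH and PSAT1.

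Whole brains of naïve adult male mice were profiled on Illumina Mouse Ref8 v2 arrays, each from a single animal: 10 B6, 10 R8, 6 R2 and 6 D2. B6 and D2 are the inbred background strains. R8 mice are congenic: a small stretch of distal chromosome 1 comes from D2 and the rest of the genome from B6. R2 mice are the reverse, with a larger B6 stretch that spans the same region in an otherwise D2 genome. None of the 10 genes lies on chromosome 1, and no animal had been given alcohol. The deposited bead signals were background-corrected and quantile-normalized together by limma's neqc and are given on the log2 scale, so that a difference of 1 is a doubling. The median raw signal lay between 380.2 and 578.5 and the number of detected probes between 10834 and 12283 over the 32 arrays. The array of D2 replicate 1 deviated most from their strain mean over all tested probes (SD of the deviations 0.286, against 0.152 to 0.219 for the others). In a whole-brain sample, fewer cells of a type and less RNA per cell cannot be told apart.

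The promoters of Asns and Chac1 are shown because both genes are known ATF4 targets, both had higher signals in R2 than in D2, and both windows hold the core of the composite element that ATF4 binds with C/EBP factors. The search was for TGATGNAA on either strand, in which N is any base, in RefSeq windows from 250 bases before to 50 bases after the start site (GRCm38.p6). It overlaps no other motif searched. Windows were held for 8 of the 10 genes, 10 windows in all, and those of Asns and Chac1 were the ones with a match. Of all 32851 windows in the table, 3.97% hold the motif. A match is a description of the letters and not of binding. The capitals mark the motif. In Asns (chr6:7693160-7693459, minus strand) it begins 23 bases before the start site and reads in the direction of transcription. In Chac1 (chr2:119350992-119351291, plus strand) it begins 193 bases before the start site and reads in the opposite direction.
Asns promoter: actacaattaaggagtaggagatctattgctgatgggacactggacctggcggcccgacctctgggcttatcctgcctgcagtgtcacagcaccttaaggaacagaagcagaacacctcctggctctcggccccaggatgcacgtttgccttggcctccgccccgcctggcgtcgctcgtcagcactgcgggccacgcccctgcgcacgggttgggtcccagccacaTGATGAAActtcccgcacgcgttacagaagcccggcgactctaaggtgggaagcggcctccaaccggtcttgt
Chac1 promoter: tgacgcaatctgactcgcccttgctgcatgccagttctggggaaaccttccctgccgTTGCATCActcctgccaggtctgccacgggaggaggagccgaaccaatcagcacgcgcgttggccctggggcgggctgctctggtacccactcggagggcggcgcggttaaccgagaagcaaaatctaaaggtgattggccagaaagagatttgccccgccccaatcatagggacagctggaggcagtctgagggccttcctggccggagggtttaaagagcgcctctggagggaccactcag
The 50-base probe of Slc7a5 (ILMN_2711948), the only probe of this gene, is shown because no sequence was at hand for the other probes of the group. It lies on the minus strand of chromosome 8 (chr8:124405178-124405227, build NCBIM37).
Slc7a5 probe: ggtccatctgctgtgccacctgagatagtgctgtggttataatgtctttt

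Atf4 (chr15:80255184-80257545, GRCm38.p6) was measured by 1 probe, ILMN_1223734. Its signal ranged from 12.04 to 12.42 in B6 (median 12.20), from 11.93 to 12.44 in R8 (median 12.18), from 10.30 to 10.96 in R2 (median 10.80) and from 10.22 to 10.64 in D2 (median 10.48). All 12 arrays on the D2 background lay below all 20 arrays on the B6 background, while B6 and R8 overlapped and so did R2 and D2. The background difference was -1.59 ± 0.058 (SE), or 3.02-fold lower on the D2 background (limma, adjusted p = 5.30e-22, n = 12 and 20). Among all probes tested, 4.89% separated the backgrounds in this way, and Atf4 was the only 1 of the 13 probes described here to do so. Whether the strains differ in sequence under this single probe was not tested.

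**Figure D1:**
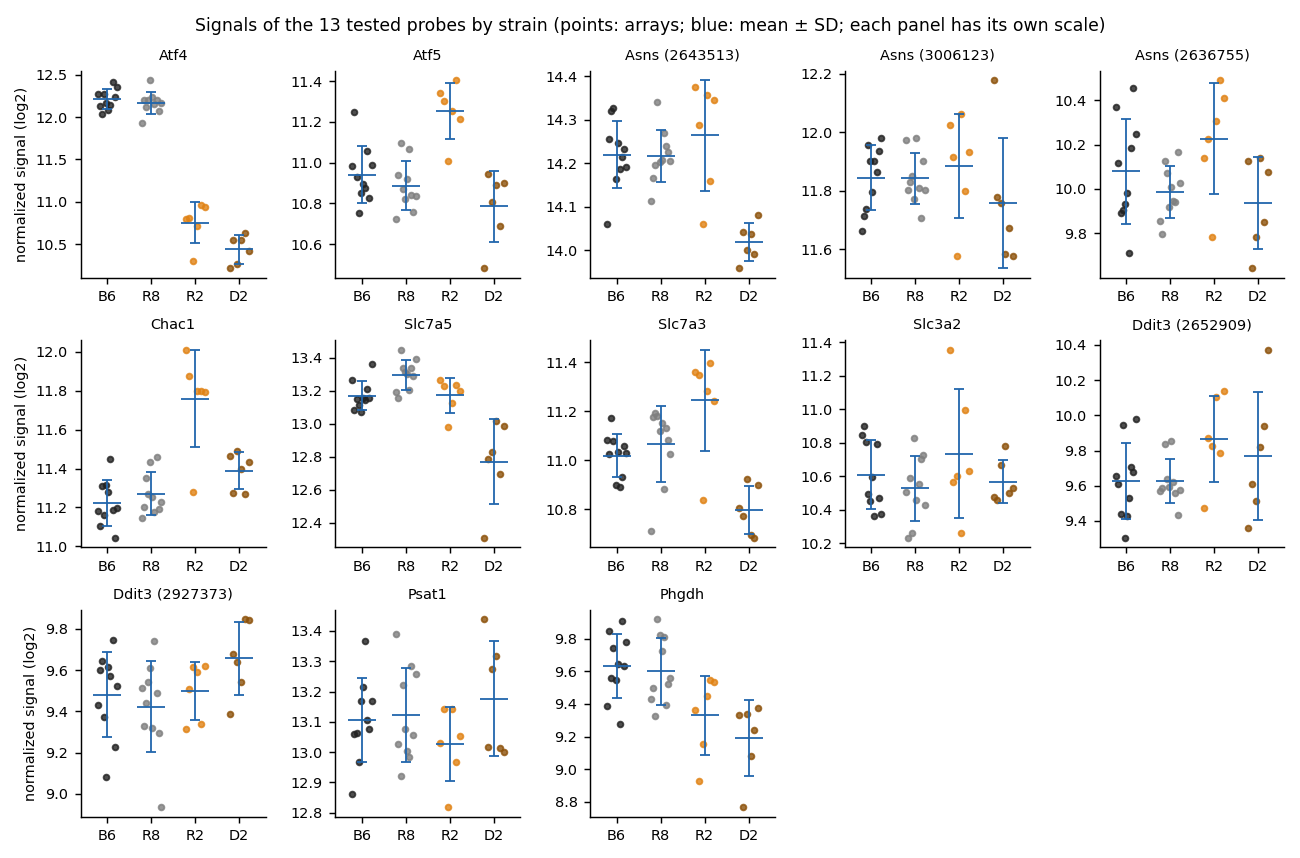
Normalized signal (log2, y axis) of the 13 tested probes in B6, R8, R2 and D2 (x axis), with 1 point per array and the mean ± SD in blue (n = 10, 10, 6 and 6). Atf4 separates the backgrounds, Slc7a5 is lower in D2 than in B6, R8 and most R2 arrays, and Atf5, Chac1 and Slc7a3 stand highest in R2.

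Atf5 and Ddit3 are the other transcription factors of the group. Atf5 (chr7:44812256-44816658) encodes a factor close to ATF4 whose mRNA is likewise translated under stress. Its probe ILMN_2646985 read 10.75 to 11.25 in B6 (median 10.91), 10.72 to 11.10 in R8 (median 10.86), 11.01 to 11.41 in R2 (median 11.28) and 10.48 to 10.94 in D2 (median 10.85). Every R2 array was above every D2 array, which was so for 1 of the 13 probes and in one direction or the other for 0.947% of all probes tested. R2 minus D2 was 0.47 ± 0.082, R2 minus B6 was 0.31 ± 0.073 and D2 minus B6 was -0.16 ± 0.073. With R2 and D2 on opposite sides of B6, the background difference of 0.11 ± 0.052 did not pass (limma, adjusted p = 0.137).
Ddit3 (chr10:127290793-127296291) encodes CHOP, a factor that promotes cell death when stress persists. Its probes ILMN_2652909 and ILMN_2927373 had background differences of 0.19 ± 0.081 and 0.13 ± 0.069 (limma, adjusted p = 0.0812 and 0.190). In R2 minus D2 they had opposite signs, 0.10 ± 0.13 and -0.16 ± 0.11. Neither probe gave separate strains: the strain means of the former lay between 9.63 and 9.87 and those of the latter between 9.42 and 9.66.

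Asns (chr6:7675165-7693209) encodes asparagine synthetase, which makes asparagine from aspartate and glutamine. Its probe with the highest signal, ILMN_2643513, read 14.06 to 14.33 in B6 (median 14.22), 14.11 to 14.34 in R8 (median 14.21), 14.06 to 14.38 in R2 (median 14.32) and 13.96 to 14.08 in D2 (median 14.02). The D2 arrays lay below 9 of the 10 B6 arrays, all 10 R8 arrays and 5 of the 6 R2 arrays. R2 minus D2 was 0.25 ± 0.053, D2 minus B6 was -0.20 ± 0.047 and R2 minus B6 was 0.04 ± 0.047. The other probes, ILMN_3006123 and ILMN_2636755, gave R2 minus D2 of 0.13 ± 0.083 and 0.29 ± 0.11, the same sign as the first. Background differences were -0.08 ± 0.034, -0.02 ± 0.053 and 0.05 ± 0.071 for the 3 probes in that order (limma, adjusted p = 0.0875, 0.803 and 0.675).
Phgdh (chr3:98313171-98339969) encodes phosphoglycerate dehydrogenase, the first enzyme of serine synthesis. Its probe ILMN_2790181 read 9.28 to 9.91 in B6 (median 9.64), 9.33 to 9.92 in R8 (median 9.54), 8.93 to 9.54 in R2 (median 9.41) and 8.77 to 9.37 in D2 (median 9.28). Signals on the D2 background were lower although the strains overlapped, and the background difference was -0.36 ± 0.076, or 1.28-fold lower (limma, adjusted p = 3.34e-04). Psat1 (chr19:15905123-15925059), the next enzyme of the pathway, had a background difference of -0.01 ± 0.055 (adjusted p = 0.902, 95% interval -0.12 to 0.10) and strain means between 13.03 and 13.18. Of the 6 astrocyte markers tested, Gja1 and Gfap were higher and Aldoc lower on the D2 background, beside 15.1% and 12.9% of all probes. The summed linear signal of the 6 was 141989 to 152480 in B6, 142767 to 155783 in R8, 143558 to 152693 in R2 and 143865 to 171765 in D2. The highest D2 sum was that of D2 replicate 1. The part of astrocytes in the values of Phgdh and Psat1 was not tested.

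Chac1 (chr2:119351242-119354326) encodes an enzyme that cleaves glutathione in the cytosol and is induced by ATF4. Its probe ILMN_2617468 read 11.04 to 11.45 in B6 (median 11.19), 11.15 to 11.46 in R8 (median 11.24), 11.28 to 12.01 in R2 (median 11.80) and 11.27 to 11.49 in D2 (median 11.42). In R2, 5 of 6 arrays were above every D2 array, and the sixth, replicate 3, lay within the range of B6. The background difference was 0.33 ± 0.053, or 1.25-fold higher on the D2 background (limma, adjusted p = 6.84e-06). R2 minus B6 was 0.54 ± 0.075 and R2 minus D2 was 0.37 ± 0.084. D2 minus B6 was 0.17 ± 0.075 and D2 minus R8 was 0.12 ± 0.075. These are descriptions, since the means of R2 and D2 took part in choosing the genes. R2 thus stood farther from B6 than D2 did, an order that the choice of genes on R2 minus D2 may itself favour. When the means of the backgrounds are compared, Chac1 was higher where Atf4 was lower, and both were higher in R2 than in D2.

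Slc7a5 (chr8:121881146-121907686) encodes LAT1, the light chain that carries leucine and other large neutral amino acids. Probe ILMN_2711948 read 13.07 to 13.36 in B6 (median 13.15), 13.16 to 13.45 in R8 (median 13.31), 12.98 to 13.27 in R2 (median 13.21) and 12.31 to 13.02 in D2 (median 12.81). All D2 arrays lay below all B6 and all R8 arrays, and 5 of 6 R2 arrays lay above all D2 arrays. R2 and B6 differed by 0.00 ± 0.072, whereas D2 minus B6 was -0.40 ± 0.072 and R2 minus D2 was 0.40 ± 0.080. The background difference was -0.26 ± 0.051, or 1.20-fold lower (limma, adjusted p = 9.51e-05). Without D2 replicate 1, the lowest array, it was -0.22 ± 0.040 (adjusted p = 5.87e-05) and R2 minus D2 was 0.31 ± 0.065.
The endothelial markers gave a summed linear signal of 16773 to 18511 in B6, 16156 to 18625 in R8, 15164 to 18151 in R2 and 14744 to 16772 in D2, so that the D2 arrays were also below the B6 arrays here. Of the 5 endothelial markers tested, Slc2a1 was lower on the D2 background (-0.13 ± 0.048, limma, adjusted p = 0.0408) and 4 did not pass. Of all probes tested, 12.9% were lower. Cldn5 and Cdh5 were not among the tested probes. D2 replicate 1 had the lowest endothelial sum of its strain, 14744. The part of these cells in the values of Slc7a5 was not tested.
Slc3a2 (chr19:8706882-8723369) encodes the heavy chain that LAT1 needs at the membrane. Its background difference was 0.08 ± 0.082 (limma, adjusted p = 0.511), with strain means between 10.53 and 10.73. R2 minus D2 was 0.17 ± 0.13, and R2 arrays alone ran from 10.26 to 11.36, a wider spread than in the other strains.
Slc7a3 (chrX:101079146-101090452) encodes CAT3, a carrier of arginine and other cationic amino acids found in neurons. Probe ILMN_1257987 read 10.89 to 11.17 in B6 (median 11.03), 10.71 to 11.19 in R8 (median 11.13), 10.84 to 11.40 in R2 (median 11.32) and 10.68 to 10.92 in D2 (median 10.79). Once more 5 of 6 R2 arrays were above all D2 arrays. R2 minus B6 was 0.23 ± 0.073 and D2 minus B6 was -0.22 ± 0.073, so the background difference was near 0 (-0.02 ± 0.052, limma, adjusted p = 0.809).

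**Figure D2:**
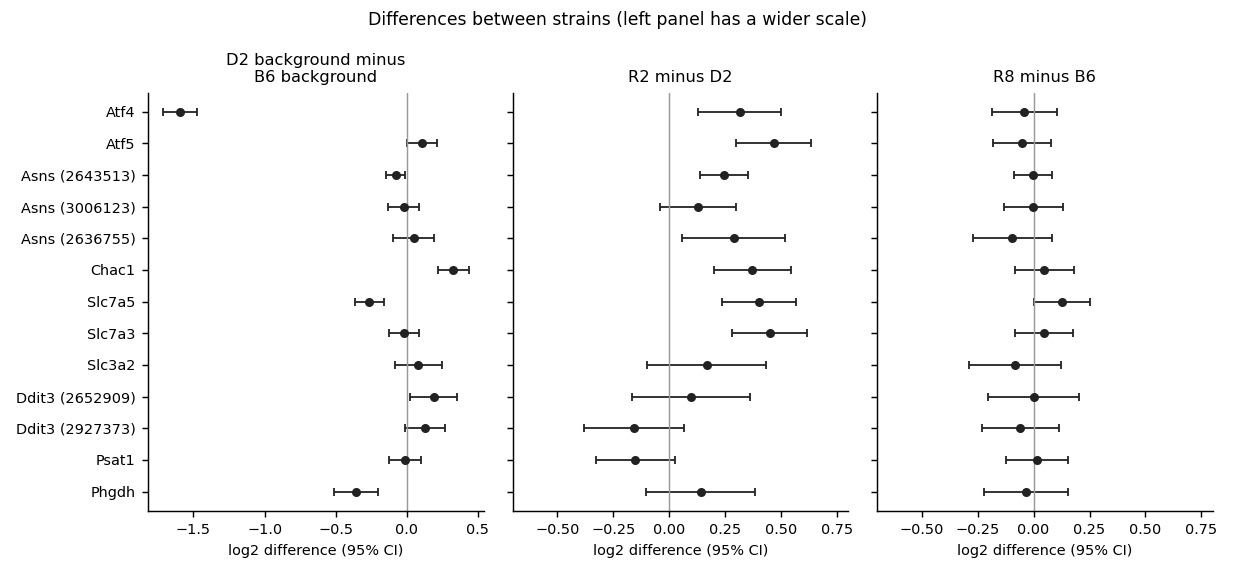
Log2 differences with 95% confidence intervals (x axis) for the 13 tested probes (y axis) between backgrounds (left, wider scale), between R2 and D2 (centre) and between R8 and B6 (right). Atf4, Slc7a5 and Phgdh lie below 0 and Chac1 above 0 on the left, 11 of 13 points lie above 0 in the centre, and on the right every point lies between -0.09 and 0.13.

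Across the background comparison, 4 of the 13 had an adjusted p under 0.05, against 28.0% of the 12351 probes tested, so that the number called is near the share of the array as a whole. The 3 lower ones (Atf4, Slc7a5 and Phgdh) stand beside 12.9% of all probes that were lower, and the 1 higher (Chac1) beside 15.1% that were higher. The median difference was -0.01 over the 13 probes and 0.02 over all probes.
In R2 minus D2, 6 probes reached an unadjusted p of 0.01, all higher in R2: Atf4, Atf5, the leading Asns probe, Chac1, Slc7a5 and Slc7a3. Of all probes tested 5.12% did so, and 2.92% were higher in R2, but these values took part in choosing the genes and nothing is read from the count. The median of the 13 differences was 0.25 and that of all probes was 0.00. Of the 5 neuron markers tested, 2 were positive in R2 minus D2 and the median was -0.15. Slc17a7, a marker of excitatory neurons, was the 1 with a p under 0.01 in limma (-0.43 ± 0.14). Stmn2 differed by -0.16 ± 0.066, Gad1 by -0.15 ± 0.083, Syt1 by 0.03 ± 0.073 and Rbfox3 by 0.06 ± 0.063. The summed linear signal of the 5 was 139191 to 158728 in R2 and 143030 to 170082 in D2, ranges that overlapped. The highest D2 sum was that of D2 replicate 1. The part of neurons in the values above was not tested. Without R2 replicate 3 the differences of the 6 probes lay between 0.29 and 0.53.
In R8 minus B6, 0 of the 13 probes reached a p of 0.01 in limma, where 0.939% of all probes did. Slc7a5 was the 1 under 0.05, and it ranked 506th by p among the 12351 probes tested. The largest difference was that of Slc7a5, 0.13 ± 0.062, with 7 of 10 B6 arrays below every R8 array. Such a count of arrays was not made for the array platform as a whole, and nothing is read from it. Atf4 differed by -0.04 ± 0.071 (95% interval -0.18 to 0.10) and Chac1 by 0.05 ± 0.065 (interval -0.08 to 0.18). No test of whether R2 and R8 differ in this respect was made, since both comparisons were known when the genes were chosen.

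To see whether the genes varied with Atf4 from animal to animal, strain means were subtracted and each tested probe was related to the Atf4 probe. On the B6 background (20 arrays) limma called 0 of the 12 other probes, as it called 0 of 12350 (0%) in all. At an unadjusted p under 0.05 there were 2 of 12, against 12.9% of all probes. These were Phgdh (Pearson r = 0.49, permutation p = 0.0340; Spearman rho = 0.44, permutation p = 0.0633; limma adjusted p = 0.320) and Ddit3 probe ILMN_2652909 (r = 0.49, permutation p = 0.0300; rho = 0.67, permutation p = 0.00283; limma adjusted p = 0.329). Without the arrays farthest from the Atf4 median, R8 replicates 1 and 5, r was 0.39 for Phgdh and 0.65 for Ddit3. Here the deviations were still those from strain means that include these arrays. The second Ddit3 probe gave r = 0.07 (permutation p = 0.780), so the relation was not seen with both probes of that gene. The leading Asns probe (r = -0.02), Chac1 (r = 0.10) and Atf5 (r = 0.11) varied little with Atf4 over these arrays. Slc7a5 gave r = 0.39 (permutation p = 0.0961; rho = 0.46, permutation p = 0.0486; limma adjusted p = 0.526). In all, 12 relations were computed.
On the D2 background (12 arrays), where co-expression of several of these genes was already known, r with Atf4 was 0.65 for Atf5, 0.53 for Slc7a5, 0.52 for the leading Asns probe, 0.47 for Slc7a3 and 0.45 for Chac1. These values rest on R2 replicate 3 and D2 replicate 1. Without those arrays, and with strain means taken anew, r was -0.03, -0.12, -0.35, -0.63 and -0.66 in the same order.

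**Figure D3:**
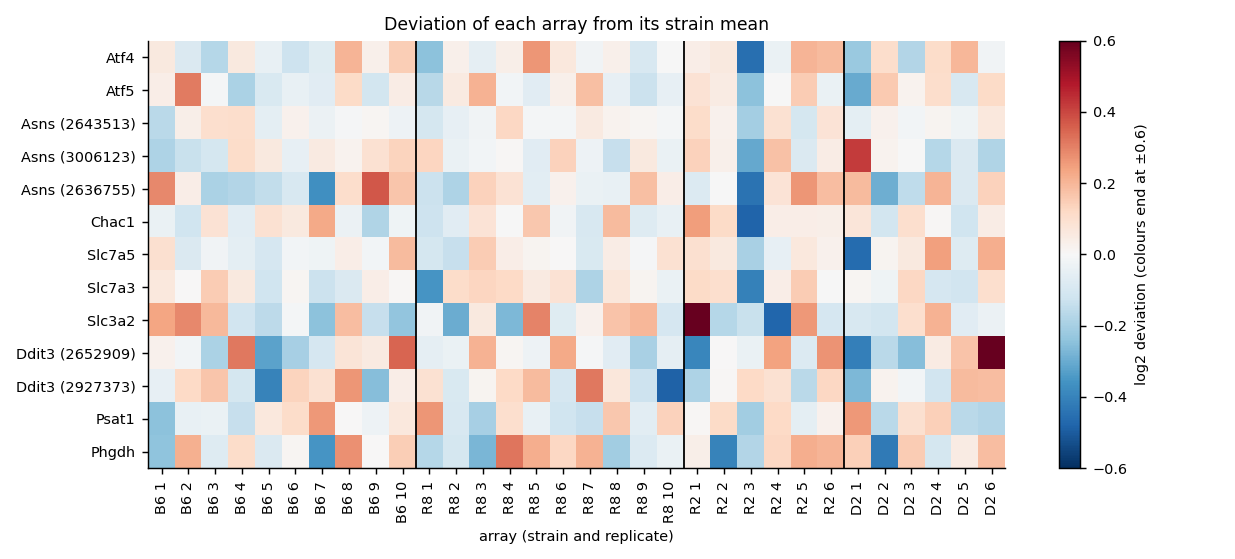
Log2 deviation of each array (x axis, by strain and replicate) from its strain mean for the 13 tested probes (y axis), with red above and blue below the mean. R2 replicate 3 is blue in most rows and is the lowest R2 array in 9 of 13.

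R2 replicate 3 was the lowest of its strain in 9 of the 13 probes. Its deviation from the strain mean was -0.45 for Atf4, -0.48 for Chac1, -0.41 for Slc7a3, -0.44 for Asns probe ILMN_2636755 and -0.25 for Atf5. Over all tested probes its deviations had an SD of 0.172, within the range of the other arrays. Their median was 0.01, but quantile normalization gives all arrays the same distribution of signals. That median therefore cannot show whether the array as a whole was shifted. Its summed signals of oligodendrocyte and microglial markers were the lowest of the 6 R2 arrays (142490 and 5251), and those of choroid plexus markers the highest (75260). What part these cells had was not tested.
Between pairs of the 13 probes, the median r on the D2 background was 0.26 over 78 pairs. It was -0.00045 without R2 replicate 3 and 0.03 without D2 replicate 1 as well, and on the B6 background it was 0.08. In this paragraph strain means were taken anew whenever an array was left out. The mean of the 78 pairs was 0.20 on the D2 background (-0.0068 without R2 replicate 3) and 0.05 on the B6 background. Over all pairs of tested probes the mean was 0.00 on either background. The highest pairs on the D2 background were Chac1 with Slc7a3 (r = 0.91) and Atf5 with Slc7a5 (r = 0.87), which without both arrays stood at 0.61 and 0.60. The Ddit3 probes had r = 0.78 with each other there and 0.10 on the B6 background. For the 3 Asns probes, r with each other was between 0.31 and 0.37 on the D2 background and between -0.15 and 0.02 on the B6 background. Without R2 replicate 3 the D2 background values of the Asns pairs lay between -0.31 and -0.04.

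The genes whose signal varied most like that of Atf4 over the 32 arrays, after subtraction of strain means, were outside the group. They were Apex1 (a DNA repair endonuclease, r = 0.77), Coq10b (a mitochondrial coenzyme Q protein, r = 0.73), Stmn4 (a stathmin that acts on microtubules, r = 0.69), Naca (a chaperone of nascent chains, r = 0.69) and Sumo3 (a ubiquitin-like modifier, r = 0.68). For all 5, r was at least 0.62 on the B6 background and at least 0.65 on the D2 background. Slc7a5, the best of the group, ranked 328th with r = 0.48.

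Upstream of ATF4, 13 of 18 listed eIF2 kinases and regulators were tested, of which 2 were higher and 2 lower on the D2 background. Of all probes tested, 15.1% were higher and 12.9% lower. Dnajc3, whose product restrains the eIF2 kinases PERK and PKR, differed by -0.70 ± 0.054 (limma, adjusted p = 7.91e-13) and Eif2ak1, the heme-regulated eIF2 kinase, by -0.47 ± 0.038 (adjusted p = 1.84e-12). Eif2b4, a subunit of the exchange factor of eIF2, was higher by 0.11 ± 0.032 (adjusted p = 0.00895). None of the 13 reached a p of 0.01 in R2 minus D2 in limma, where 5.12% of all probes did. Of the bZIP factors related to ATF4, 4 of 12 were tested and 0 passed, where 28.0% of all probes did. The largest difference was that of Fos, -0.24 ± 0.11 (adjusted p = 0.116).
Among 24 other ATF4 targets tested, 6 were lower on the D2 background and 0 were higher in limma, where 12.9% of all probes were lower and 15.1% higher, and the median was -0.04 over the list and 0.02 over all probes. Slc7a11, the cystine transporter that supplies glutathione synthesis, was lower by 0.75, with strain means of 10.87 in B6, 10.89 in R8, 10.06 in R2 and 10.21 in D2 (adjusted p = 2.01e-14). Nupr1, a stress-induced chromatin protein, differed by -0.25 ± 0.053 (adjusted p = 2.93e-04) and Sesn2, a leucine sensor that restrains mTORC1, by -0.43 ± 0.11 (adjusted p = 0.00294). Ddit4, Gpt2 and Bcat1 were the other 3. Sesn2 had means of 7.92 in B6, 7.68 in R2 and 7.27 in D2, and R2 minus D2 was 0.42 ± 0.17. Its D2 mean was not far above 6.96, the mean of the Slc7a3 probe detected in 0 arrays. Over the 24 genes, 15 were positive in R2 minus D2, with a median of 0.02. Of all probes tested, 50.5% were positive, with a median of 0.00.

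**Figure D4:**
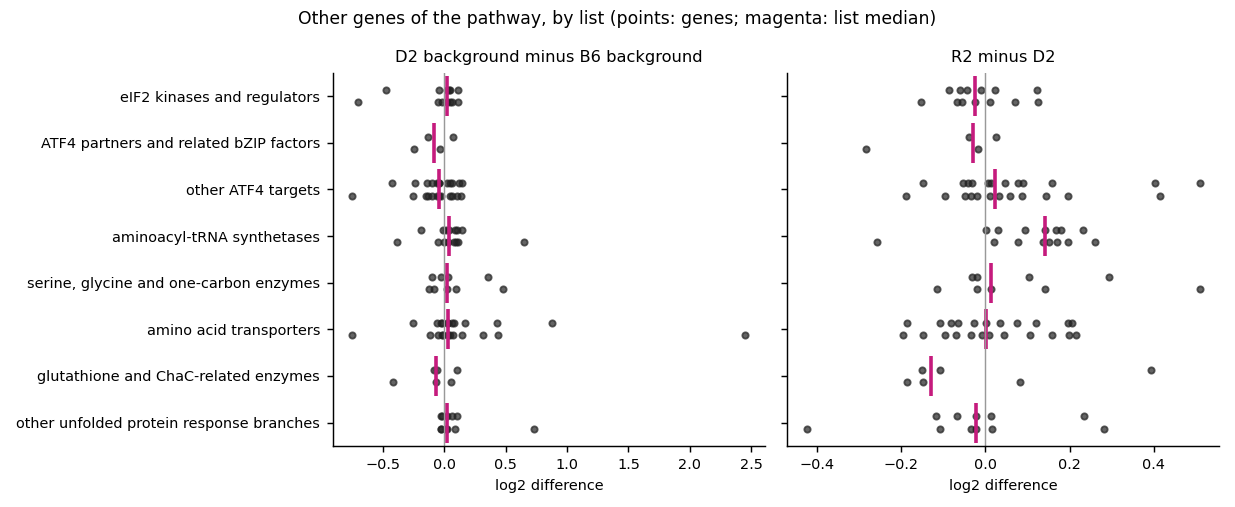
Log2 differences (x axis) of the tested genes of 8 pathway lists (y axis) between backgrounds (left) and between R2 and D2 (right), with 1 point per gene and the list median in magenta. Most aminoacyl-tRNA synthetases lie above 0 on the right, with 14 of 15 positive.

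The aminoacyl-tRNA synthetases, which charge tRNA with amino acids and of which many are ATF4 targets, were described over 15 tested genes. In R2 minus D2, 14 of 15 were positive with a median of 0.14, where 50.5% of all probes were positive with a median of 0.00. Gars (0.26 ± 0.059), Iars (0.18 ± 0.060) and Aars (0.14 ± 0.047) reached an unadjusted p of 0.01, and Eprs was the 1 negative gene (-0.26 ± 0.10). Without R2 replicate 3 the count was 14 of 15 and the median again 0.14. Over backgrounds 3 were higher and 2 lower, beside 15.1% and 12.9% of all probes. Farsa, the catalytic subunit for phenylalanine, was higher by 0.65 ± 0.064 (limma, adjusted p = 2.61e-10). Its partner Farsb differed by -0.19 ± 0.050 (adjusted p = 0.00389) and by -0.21 ± 0.041 with its other probe. Eprs was lower by 0.38 with 1 probe (adjusted p = 1.24e-05) and had a difference of 0.14 ± 0.076 with the other (adjusted p = 0.197).
In serine, glycine and one-carbon metabolism, 9 genes were tested. On the D2 background 2 were higher and 1 lower, beside 15.1% and 12.9% of all probes. The mitochondrial enzymes Shmt2 and Aldh1l2 were higher by 0.48 ± 0.070 and 0.35 ± 0.075 (limma, adjusted p = 1.16e-06 and 3.28e-04), opposite in sign to Phgdh. Gldc, of the glycine cleavage system, differed by -0.12 ± 0.040 (adjusted p = 0.0221). Mthfd2, a mitochondrial folate enzyme and ATF4 target, had strain means of 8.31 in B6, 8.32 in R8, 8.47 in R2 and 7.97 in D2, with R2 minus D2 at 0.51 ± 0.15. It was singled out after its values were seen, as were Gars, Iars and Aars above.
Of the other amino acid transporters, 23 were tested. On the D2 background 6 were higher and 2 lower, beside 15.1% and 12.9% of all probes. Slc7a14, a lysosomal relative of the cationic carriers, was higher by 2.45 ± 0.063 (limma, adjusted p = 1.86e-26), and its other probes gave 2.46 and 1.04. Slc1a2, the main glutamate transporter of astrocytes, was higher by 0.43 ± 0.041 with its leading probe (adjusted p = 1.25e-10), but the other 2 probes gave -0.29 and 0.15 and so did not have the same sign. In R2 minus D2 none of the 23 reached a p of 0.01 in limma, where 5.12% of all probes did, and the median was 0.00 over the 23 and over all probes.
Of 6 glutathione enzymes tested, Gclm, the modifier subunit of the rate-limiting enzyme of glutathione synthesis, differed by -0.42 ± 0.064 (limma, adjusted p = 2.24e-06). For Ggct, a related gamma-glutamyl cyclotransferase, the leading probe differed by -0.08 ± 0.054 (adjusted p = 0.313), while its other probes gave -0.76, -0.96 and 0.20. In the remaining branches of the unfolded protein response, 1 of 11 genes passed, where 28.0% of all probes did. It was Hyou1, a chaperone of the endoplasmic reticulum, higher by 0.73 ± 0.089 (limma, adjusted p = 3.80e-08). In R8 minus B6, none of the genes of these 8 lists reached a p of 0.01 in limma, where 0.939% of all probes did.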

How the data were processed

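Whole-brain RNA of 32 mice was measured on 1 array each. Of each probe and array the deposited signal table holds the mean bead intensity, not normalized and not background-subtracted by the authors, and a detection p-value. A second deposited table holds intensities normalized by the authors, who name lumi, and served as an alternative. Array number limits the precision. Grouping and replicate numbers came from the sample labels, and nothing beyond 1 animal per array is stated on batches.

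Signals of all arrays were processed with neqc of limma 3.58.1 in R 4.3.3 (offset 16, negative controls inferred from the detection p-values). Probes were kept if 6 or more arrays had a detection p under 0.01, 12351 in all. Strain means were fitted with lmFit and eBayes, with two-sided tests and Benjamini-Hochberg adjustment over all probes kept, and errors are standard errors unless named SD. The background difference is the mean of R2 and D2 minus the mean of B6 and R8, which is orthogonal to R2 minus D2 and to R8 minus B6. Comparisons of R2 and D2 with B6 share the B6 arrays. Relations to Atf4 used deviations from strain means, a limma slope with strain as a term, and 100000 permutations within strain. The steps were tested on simulated data.

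The members and gene lists were chosen with earlier results of these data known. Named genes are all members, up to 3 genes per list with the smallest p between backgrounds, and the 5 genes most like Atf4. A gene of a list is represented by its probe with the highest mean signal, and some genes stand in 2 lists. Gars, Iars, Aars, Mthfd2, Ddit4, Gpt2, Bcat1, Syt1 and Gad1 fall outside this rule and were named after their values were seen. Of the probes, 23978 have 1 symbol in the platform table and 1719 have none. Coordinates are those of RefSeq genes on GRCm38.p6. Probe positions within transcripts were not analysed here.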

Additional observations from a re-analysis of the deposited data

Results flagged for a closer look

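In 4 of 52 groups examined (13 probes in 4 strains), 1 array stood so far from the others that the gap to its neighbour took up more of the group's range than Dixon's 95% limit. Chance alone marks about 1 group in 20. In R2, replicate 3 was the lowest array for 3 probes: Atf4 at 10.30 (next 10.72), Chac1 at 11.28 (next 11.80) and Slc7a3 probe ILMN_1257987 at 10.84 (next 11.24). Without that array, R2 minus D2 was 0.41 for Atf4, 0.47 for Chac1 and 0.53 for Slc7a3. In D2, replicate 1 was the highest array for Asns probe ILMN_3006123, at 12.18 (next 11.78), and it was also the lowest D2 array for Slc7a5 and Atf5.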

How the results depend on the processing

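Between backgrounds, Atf4, Chac1, Slc7a5 and Phgdh passed in every one of 10 other settings and without any 1 of the 32 arrays, and the number of probes called was 4 or 5 across settings and 4 to 6 with an array left out. It was 6 without D2 replicate 1, which added Atf5 (0.14, limma adjusted p = 0.0343) and Ddit3 probe ILMN_2652909 (0.23, adjusted p = 0.0263). That Ddit3 probe also passed with blocks of 8 array numbers (0.22, adjusted p = 0.0264), with the median raw signal as a covariate (0.21, adjusted p = 0.0463) and with array weights (0.24, adjusted p = 0.0146), and its adjusted p reached 0.132 elsewhere. The leading Asns probe passed without B6 replicate 1 (adjusted p = 0.0476). Signs near 0 turned for Asns probe ILMN_3006123 (0.0025 with median scaling, -0.065 to 0.0082 with an array left out), Psat1 (0.014 with median scaling, 0.020 with the replicate block, -0.039 to 0.0082) and Slc7a3 (-0.041 to 0.019).

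R2 minus D2 had 5 to 7 probes at p under 0.01 in other settings and 6 to 8 with an array left out. All probes at that threshold numbered 632, but 320 when each background was normalized apart and 311 by the methods' t-test. The probes past the adjusted threshold numbered 61, but 16 and 7 in those settings, 37 without a detection filter and 40 with blocks of 8 array numbers. With an array left out they ranged from 32 (D2 replicate 3) to 127 (D2 replicate 2), with 105 without D2 replicate 6, 33 without R2 replicate 5, 35 without R2 replicate 2 and 40 without D2 replicate 1, and those at p under 0.01 ranged from 328 (D2 replicate 1) to 869 (D2 replicate 6). Of the adjusted calls 77.0% were higher in R2, against 62.5% when normalized apart, 65.3% with the replicate block and 100% by the t-test. The synthetases had 12 to 14 positive genes in all settings, with medians from 0.12 to 0.16. R8 minus B6 had 1 member probe at p under 0.01 when each background was normalized apart, where 132 of all 12351 probes did. It had 1 by the methods' t-test, where 128 of all probes did, and 0 in the other settings and with any array left out.

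The slopes on Atf4 on the B6 background called 0 member probes in all settings tried. Slopes that turned were those of the leading Asns probe (0.27 with median scaling, -0.15 to 0.065 with an array left out), ILMN_3006123 (0.21, and -0.085 to 0.16), ILMN_2636755 (-0.14 with blocks of 8 array numbers), Slc3a2 (-0.10 with median scaling, -0.0055 with those blocks, -0.34 to 0.23), Ddit3 probe ILMN_2927373 (-0.027 with those blocks, -0.12 to 0.27), Atf5 (-0.063 to 0.25), Chac1 (-0.11 to 0.17) and Slc7a3 (-0.035 to 0.48). The cause of these changes was not tested. On the D2 background 0 were called in every setting.

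Same-numbered arrays of R2 and D2 correlated at -0.06 to 0.16 in their deviations and those of R8 and B6 at -0.29 to 0.31. The correlation was over 0.1 in 4 of 6 pairs of the former and in 2 of 10 pairs of the latter. Whether the numbers pair the animals cannot be told from these values. The replicate block left the count of member probes within 1.5 times the main count in all 3 comparisons. Blocks of 8 neighbouring table columns and the synthetase medians were added after seeing the data. A second Atf4 probe was not run, since 1 probe carries the symbol. Probes read relative signal over background, and a single probe per gene limits Atf4, Atf5, Chac1, Slc7a5, Slc3a2, Psat1 and Phgdh.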
